A study of Saccharomyces cerevisiae with 8 samples.

Results

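The 2′-O-methylated nucleotides of 25S rRNA were analyzed for reverse transcriptase stops in purified precursors of the yeast large ribosomal subunit (LSU). The members were chosen by their numbers in 25S rRNA, each taken with 2 nucleotides (nt) on either side, and the rule used none of their values. There were 38 members, whose windows held 164 of the 3396 rows that the table gives for 25S rRNA, out of 10000 rows for the rDNA region. The windows of 8 neighbouring pairs overlapped, so that some rows belonged to both members. All members lie in the noncoding exon of RDN25-1, on the minus strand of chromosome XII between nucleotides 451786 and 455181 of the R64 genome.

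25S-preLSUs, late precursors purified via Lsg1-TAP from 2 litre cultures, were set against 27SB-preLSUs, earlier precursors purified via Noc3-TAP from 6 litre cultures. The authors describe Lsg1 as bound to late precursors in the cytoplasm and also to mature free LSUs, and their name 25S-preLSUs covers both. In each purification the yeast strains expressed MNase, a calcium dependent nuclease, fused to rpL5, rpL27 or rpL35 as the only source of that ribosomal protein, from a plasmid, or no MNase. Calcium was added to all purified fractions, those without MNase included, at 8 mM for 10 min and 16 °C. There was 1 library for each of the 8 conditions and no replicate, and the purification, the culture volume and the precursor cannot be told apart.

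Members are written as Nm, for a nucleotide with a methylated ribose, followed by their number in 25S rRNA. Most 2′-O-methyl groups of yeast rRNA are added by box C/D snoRNPs, in which a snoRNA pairs with the rRNA and guides the methyltransferase Nop1 (fibrillarin in human) to a fixed nucleotide. A few are set by an enzyme without a guide, such as Spb1 at Nm2922 in the A-loop of the peptidyl transferase centre. A methyl group on the ribose can make a reverse transcriptase pause, mostly when nucleotides are scarce, and the cDNA then ends 1 nt 3′ of the methylated nucleotide. From the same background knowledge, a box C/D guide was assigned to 36 members, Spb1 to Nm2922, and no methylation guide or enzyme to nt2880, and all 31 genes so named were found in the yeast annotation. The nucleotide nt2880 is in the list of members, but the same knowledge gives it as a pseudouridine of the box H/ACA snoRNA snR34 and not as a methylated ribose, which no source used here settles, so it is not written as Nm. The deposited values do not themselves measure methylation.

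The readout was the termination to coverage ratio (TCR), the share in percent of the unique cDNA fragments across a nucleotide whose end lies on it. Offsets are counted from the member, with positive numbers towards the 3′ end. The expected place of the stop was checked at 4 nucleotides with a methylated base, m1A645, m1A2142, m3U2634 and m3U2843, where the block does not depend on the ribose. Of 16 cases per purification (4 nucleotides in 4 libraries), the highest TCR lay at +1 in 8 and at 0 in the other 8 for 25S-preLSUs, and at +1 in all 16 for 27SB-preLSUs. The depth at each nucleotide is unknown, and no counting interval was computed.

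A peak of terminations stood 1 nt 3′ of the members in both purifications, and it was much higher in 27SB-preLSUs. The median TCR at +1 over the 38 members was 0.163%, 0.125%, 0.139% and 0.111% in the 25S-preLSU libraries of MNase-rpL5, MNase-rpL27, MNase-rpL35 and no MNase. The corresponding 27SB-preLSU libraries had medians of 0.667%, 3.18%, 0.977% and 2.78%. The medians of the 4 libraries averaged 0.135% ± 0.022 in 25S-preLSUs and 1.90% ± 1.26 in 27SB-preLSUs (SD, n = 4 libraries with different fusions). No library of the 25S-preLSUs reached the lowest of the 27SB-preLSUs.

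The other 3232 rows of 25S rRNA had medians of 0.0397% to 0.0560% in the 25S-preLSU libraries and of 0.0491% to 0.0557% in the 27SB-preLSU libraries. The members' median at +1 was 2.67 to 3.15 times that of the other rows in 25S-preLSUs. The corresponding ratios in 27SB-preLSUs were 13.6 (MNase-rpL5), 57.04 (MNase-rpL27), 18.1 (MNase-rpL35) and 52.9 (no MNase). Between the purifications and among the 27SB-preLSU libraries, the members' median thus differed by more than that of the other rows, whereas among the 25S-preLSU libraries both varied by a similar factor.

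**Figure D1:**
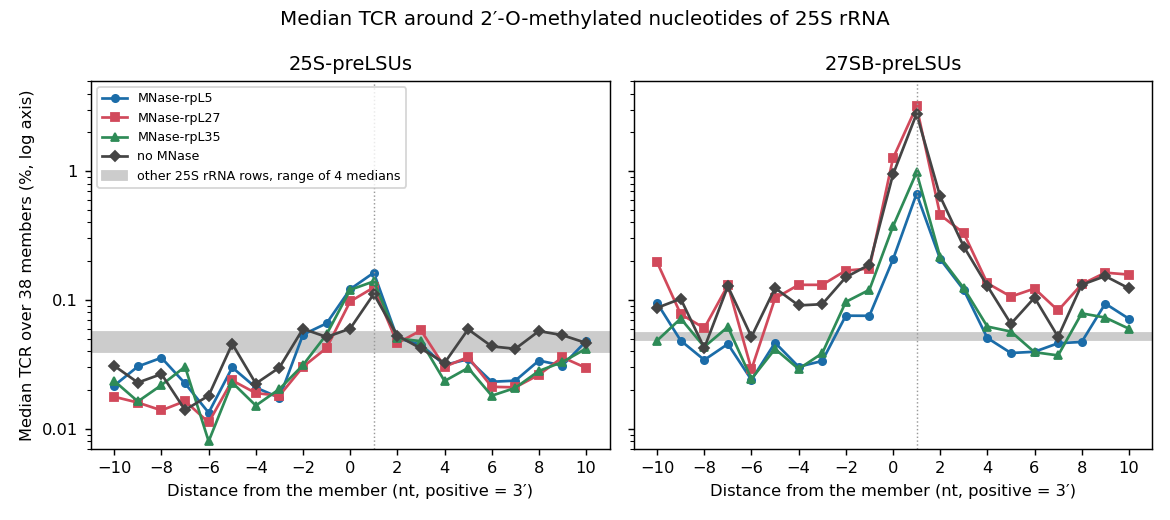
Median TCR over the 38 members (vertical axis, percent, log scale) at each distance from the member (horizontal axis, nt), for 25S-preLSUs on the left and 27SB-preLSUs on the right. Lines are libraries, the grey band is the range of the medians of the other 25S rRNA rows, and a median of 0 is drawn at the lower edge. All lines peak at +1, at 0.111% to 0.163% in 25S-preLSUs and at 0.667% to 3.18% in 27SB-preLSUs.

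The rows next to the peak were raised too in 27SB-preLSUs. For the MNase-rpL5, MNase-rpL27, MNase-rpL35 and no MNase libraries the median at 0 was 0.206%, 1.26%, 0.372% and 0.941%. At +2 the medians were 0.208%, 0.457%, 0.215% and 0.636% in the same libraries, so the row at 0 stood above that at +2 in all of them but the MNase-rpL5 one. At −1 and −2 they stayed between 0.0754% and 0.188%. In the 25S-preLSU libraries, in the same order, the median at 0 was 0.121%, 0.0974%, 0.120% and 0.0600%. In proportion, these medians were nearer to those at +1 than in 27SB-preLSUs. A comparison at +1 alone does not separate the level of a stop from its place, and a shift in place between the purifications was not tested.

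Within its 5 rows, a member most often had its highest TCR at +1, except in the 25S-preLSU library without MNase, where the rows at −2 and +2 held the highest value at 10 members each. In the 25S-preLSU libraries of MNase-rpL5, MNase-rpL27, MNase-rpL35 and no MNase this held for 15, 12, 13 and 9 of 38 members. In the 27SB-preLSU libraries the counts were 19, 22, 22 and 21. The row at 0 held the highest value at 6 to 10 members in 25S-preLSU libraries and at 9 to 11 in 27SB-preLSU libraries. No such count was made for windows elsewhere in 25S rRNA, and a row shared by neighbouring members can count for both.

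The highest row of a member was often the same in all libraries of the 27SB-preLSUs. There, 18 members had their highest row at +1 in all 4 libraries, and 7 had it at 0 in all 4, namely Nm817, Nm2256, Nm2281, Nm2619, Nm2815, Nm2922 and Nm2946. For Nm2281 and Nm2922 the row at 0 is also the +1 row of a neighbouring member, Nm2280 or Nm2921, and these rows cannot be assigned to one of the pair. In all 8 libraries the highest row lay at 0 for Nm817, Nm2256 and Nm2619 and at +1 for Nm2197, Nm2288, Nm2337 and Nm2347.

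**Figure D2:**
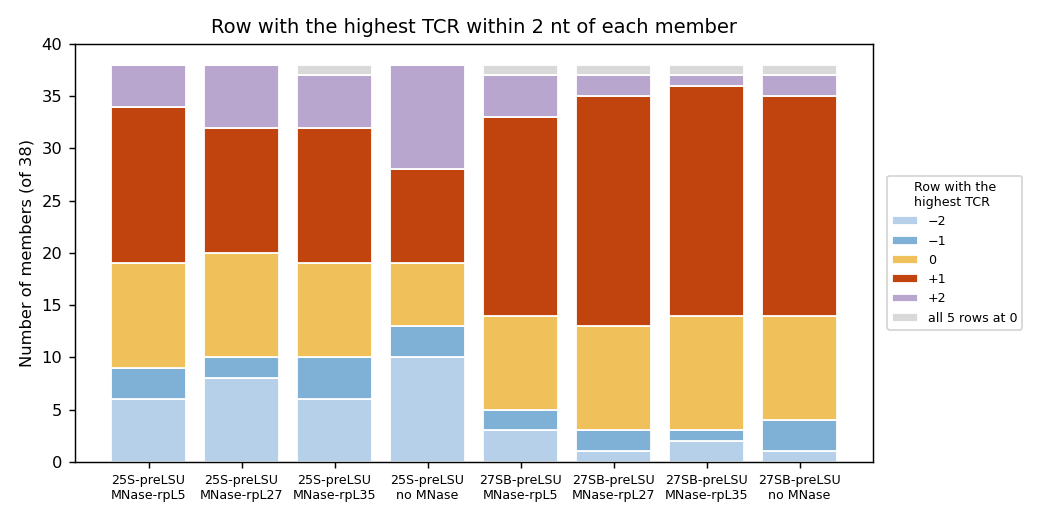
Number of members (vertical axis, of 38) by the row with the highest TCR within 2 nt, for each library, with the 4 libraries of 25S-preLSUs on the left and the 4 of 27SB-preLSUs on the right. The row at +1 takes 9 to 15 members in 25S-preLSUs and 19 to 22 in 27SB-preLSUs.

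A stop was called where the TCR exceeded the authors' noise estimate and was at least 2 times the median of the rows 4 to 15 nt away, in 4 of 4 libraries of a purification. At +1, 3 of 38 members were called in 25S-preLSUs (Nm1450, Nm2280 and Nm2347), against 2.59% of all 25S rRNA rows. In 27SB-preLSUs 18 of 38 were called at +1, against 2.94% of all rows. These were Nm650, Nm805, Nm807, Nm876, Nm898, Nm1133, Nm1437, Nm1449, Nm1450, Nm2220, Nm2280, Nm2281, Nm2288, Nm2337, Nm2347, Nm2421, Nm2640 and Nm2724. Counting rows at 0 or +1, 8 members were called in 25S-preLSUs, against 20 for 27SB-preLSUs. The added members included Nm817 and Nm2256, whose stop lay at 0 in both purifications. This count gives each member 2 rows, whereas the shares above are for single rows, and no share of other rows was computed for it. A row shared by neighbours, such as that of Nm2280 and Nm2281, counts for both. Library by library, 5 to 8 members passed at +1 in 25S-preLSUs, and 18, 31, 20 and 29 passed in 27SB-preLSUs with MNase-rpL5, MNase-rpL27, MNase-rpL35 and no MNase. Of the other rows, 4.80% to 8.35% passed in single 25S-preLSU libraries and 4.27% to 5.26% in single 27SB-preLSU libraries. In the 25S-preLSU library without MNase, 13.2% of the members passed, against 8.35% of the other rows. The call needs all 4 libraries, so the 2 lower ones set the count in 27SB-preLSUs, where 28 members passed in both the MNase-rpL27 and the no MNase library.

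The highest members were examined one by one, with libraries given in the order MNase-rpL5, MNase-rpL27, MNase-rpL35 and no MNase. Nm1133 (chromosome XII, 454049), guided by snR61, had 0.345%, 0.694%, 1.42% and 0.255% at +1 in 25S-preLSUs with MNase-rpL5, MNase-rpL27, MNase-rpL35 and no MNase. In 27SB-preLSUs it had 6.67%, 31.4%, 13.4% and 26.7% in the same order of libraries. The 2 purifications did not overlap, and the row at the member itself stayed at or below 1.55% in all 8 libraries. On the log2 scale of TCR plus 0.1%, 25S-preLSUs were lower by 4.66 ± 0.58 (SE, limma, adjusted p = 0.00165).

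Nm2347 (452835), guided by snR65, had 0.971%, 0.740%, 0.690% and 0.449% at +1 in 25S-preLSUs with MNase-rpL5, MNase-rpL27, MNase-rpL35 and no MNase. In 27SB-preLSUs the values were 3.33%, 30.8%, 7.22% and 27.6%. Here the row at 0 was low, with at most 0.0425% in 25S-preLSUs and at most 0.492% in 27SB-preLSUs. The row at +2 had up to 0.103% in 25S-preLSUs and up to 2.12% in 27SB-preLSUs. Nm2337 (452845), guided by snR64 and 10 nt away, had 0.193% to 0.890% at +1 in 25S-preLSUs and 2.99% to 16.8% in 27SB-preLSUs. Its row at 0 was higher than that of Nm2347, with 0.0665% to 0.290% in 25S-preLSUs and 0.189% to 1.08% in 27SB-preLSUs.

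The neighbours Nm2280 and Nm2281 (452902 and 452901) share the guide snR13, and their window also holds m5C2278. The row that is +1 of Nm2280 and 0 of Nm2281 had 3.44%, 2.77%, 3.21% and 1.38% in 25S-preLSUs with MNase-rpL5, MNase-rpL27, MNase-rpL35 and no MNase. In 27SB-preLSUs it had 5.49%, 26.4%, 7.44% and 26.2%. This was the highest row at +1 of any member in each of the 25S-preLSU libraries. The next row, +1 of Nm2281, had 0.103% to 0.427% in 25S-preLSUs and 1.87% to 6.26% in 27SB-preLSUs, again without overlap.

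Nm805 and Nm807 (454377 and 454375) lie 2 nt apart and have separate guides, snR39b for Nm805 and the pair snR39 and snR59 for Nm807. At +1 of Nm805 the TCR was 0.717%, 0.519%, 0.755% and 0.759% in 25S-preLSUs with MNase-rpL5, MNase-rpL27, MNase-rpL35 and no MNase, and 4.09%, 27.2%, 5.18% and 26.1% in 27SB-preLSUs. At +1 of Nm807 it was 0.620%, 0.506%, 0.674% and 0.340% in 25S-preLSUs, and 5.65%, 24.7%, 7.55% and 21.4% in 27SB-preLSUs. The row between them, +2 of Nm805 and 0 of Nm807, carried terminations as well, at 0.861% to 1.41% in 25S-preLSUs and 3.82% to 25.3% in 27SB-preLSUs. The stops thus ran over 3 consecutive rows, of which the middle one was the highest in each 25S-preLSU library.

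Nm1437, Nm1449 and Nm1450 (453745, 453733 and 453732) are all guided by snR24, yet their profiles differed. At +1 of Nm1437 the TCR was 0.564%, 0.366%, 0.358% and 0.0565% in 25S-preLSUs with MNase-rpL5, MNase-rpL27, MNase-rpL35 and no MNase, and 3.42%, 5.51%, 6.08% and 3.95% in 27SB-preLSUs. At +1 of Nm1450 it was 2.68%, 2.54%, 2.47% and 1.24% in 25S-preLSUs, and 1.31%, 2.38%, 1.78% and 1.45% in 27SB-preLSUs. Nm1450 was the only member called as a stop at +1 in both purifications whose values overlapped between them, and its log2 difference of 0.33 ± 0.52 (SE) did not pass the limma test (adjusted p = 0.754). At +1 of Nm1449, which is the row of Nm1450 itself, 25S-preLSUs had 0.176% to 0.629% and 27SB-preLSUs 0.737% to 3.18%.

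A stop at the methylated nucleotide itself was clearest at Nm817 (454365, guided by snR60) and Nm2256 (452926, guided by snR63). At Nm817 the row at 0 had 1.83%, 1.92%, 1.99% and 1.31% in 25S-preLSUs with MNase-rpL5, MNase-rpL27, MNase-rpL35 and no MNase, and 2.38%, 9.40%, 2.25% and 7.37% in 27SB-preLSUs. At Nm2256 it had 1.85%, 2.18%, 1.92% and 1.11% in 25S-preLSUs, and 2.06%, 10.5%, 2.57% and 7.50% in 27SB-preLSUs. For Nm817 the purifications did not overlap, and for Nm2256 the lowest 27SB-preLSU library was below the highest 25S-preLSU library. Neither difference at 0 passed the limma test, with adjusted p = 0.194 for Nm817 and adjusted p = 0.183 for Nm2256. At +1 the 25S-preLSUs were lower at Nm2256 by 2.87 ± 0.66 on the log2 scale (limma, adjusted p = 0.0257), and the difference at Nm817 did not pass (adjusted p = 0.115).

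Nm649 and Nm650 (454533 and 454532), guided by snR18, lie just 3′ of m1A645. The row at −2 of Nm649 had 6.59% to 7.01% in 25S-preLSUs and 6.80% to 7.87% in 27SB-preLSUs, and by this row Nm649 ranks first among the members. The m1A645 stop itself had 91.1% to 92.4% in 25S-preLSUs and 96.7% to 97.4% in 27SB-preLSUs. The part of that stop in the rows of Nm649 was not tested. At +1 of Nm650, further from m1A645, the TCR was 0.181%, 0.133%, 0.109% and 0.161% in 25S-preLSUs with MNase-rpL5, MNase-rpL27, MNase-rpL35 and no MNase. In 27SB-preLSUs it was 1.20%, 10.3%, 2.23% and 8.53%, without overlap.

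In the peptidyl transferase region, Nm2921 (452261, guided by snR52) and Nm2922 (452260, Spb1) share the row that is +1 of Nm2921 and 0 of Nm2922. It had 0.137%, 0.0524%, 0.0232% and 0.0883% in 25S-preLSUs with MNase-rpL5, MNase-rpL27, MNase-rpL35 and no MNase, and 0.980%, 5.39%, 1.25% and 2.62% in 27SB-preLSUs. The +1 row of Nm2922, where a stop of its own would be read, had 0.0232% to 0.127% in 25S-preLSUs and 0.351% to 2.62% in 27SB-preLSUs. Both rows were lower in 25S-preLSUs, by 3.67 ± 0.60 and 2.75 ± 0.60 on the log2 scale (SE, limma, adjusted p = 0.00615 and 0.0193). The authors' noise at these nucleotides in 27SB-preLSUs was 2.28%, above which rose the shared row with MNase-rpL27 and no MNase and the +1 row of Nm2922 with MNase-rpL27.

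The pair Nm2946 (452236, guided by snR71) and Nm2948 (452234, guided by snR69) lies further 3′ in the same domain. At +1 of Nm2946 the TCR was 0.354%, 0.548%, 0.497% and 0.210% in 25S-preLSUs with MNase-rpL5, MNase-rpL27, MNase-rpL35 and no MNase, and 1.23%, 11.5%, 2.33% and 5.98% in 27SB-preLSUs. The row at Nm2946 itself had 0.235% to 0.488% in 25S-preLSUs and 1.33% to 13.9% in 27SB-preLSUs. At +1 of Nm2948 the values were lower, at most 0.124% in 25S-preLSUs and 0.295% to 3.21% in 27SB-preLSUs. The authors' noise in 27SB-preLSUs was 2.58% at Nm2946 and its +1 row, and 2.60% at +1 of Nm2948. Both rows of Nm2946 rose above it with MNase-rpL27 and no MNase, and its row at 0 also with MNase-rpL35. The +1 row of Nm2948 did so only without MNase. In 25S-preLSUs all these rows lay below the noise.

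Nm2640 (452542, guided by snR68) had 0.122% to 0.214% at +1 in 25S-preLSUs and 3.01%, 5.60%, 1.50% and 4.50% in 27SB-preLSUs with MNase-rpL5, MNase-rpL27, MNase-rpL35 and no MNase. Its row at 0 had 0.213% to 0.412% in 25S-preLSUs, and 30.3%, 4.26%, 2.30% and 4.04% in the same 27SB-preLSU libraries. The MNase-rpL5 library of 27SB-preLSUs thus stood above all others in that row. The nucleotide is among the known sites of tethered MNase that were kept out of the other stops below, and the part of MNase cleavage in the rows of Nm2640, which counts among the stops called at +1, was not tested. Nm2220, Nm2288 and Nm2724, guided by snR47, snR75 and snR67, had +1 rows of 0.112% to 0.422% in 25S-preLSUs and of 1.98% to 12.3% in 27SB-preLSUs. For none of these 3 did the purifications overlap.

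By the median over the 8 libraries of the highest of their 5 rows, the lowest members were nt2880, Nm663, Nm908, Nm2791 and Nm2197. In the MNase-rpL27 and no MNase libraries of 27SB-preLSUs alone, Nm1888 and Nm2417 stood below all of these but nt2880. Their highest rows there had at most 0.549% and 0.633%. The rows at 0 and +1 of nt2880 had at most 0.0523% in 25S-preLSUs, and all its 5 rows were listed at 0 in each 27SB-preLSU library. No stop was thus seen at this presumed pseudouridine, which says nothing about a methylated nucleotide, and at unknown depth no limit can be given. At +1 of Nm663, guided by snR58, 25S-preLSUs had 0.00721% to 0.0167% and 27SB-preLSUs 0.132% to 1.83%. Nm2197, guided by snR76, had 0.0181% to 0.0447% in 25S-preLSUs and 0.299% to 1.80% in 27SB-preLSUs, with its highest row at +1 in all 8 libraries. Nm908, guided by snR60 as is Nm817, had 0.0152% to 0.116% in 25S-preLSUs and 0.129% to 1.00% in 27SB-preLSUs. Nm2791 and Nm2793, which share snR48, had at most 0.277% at +1 in 25S-preLSUs and 0.153% to 3.68% in 27SB-preLSUs.

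**Figure D3:**
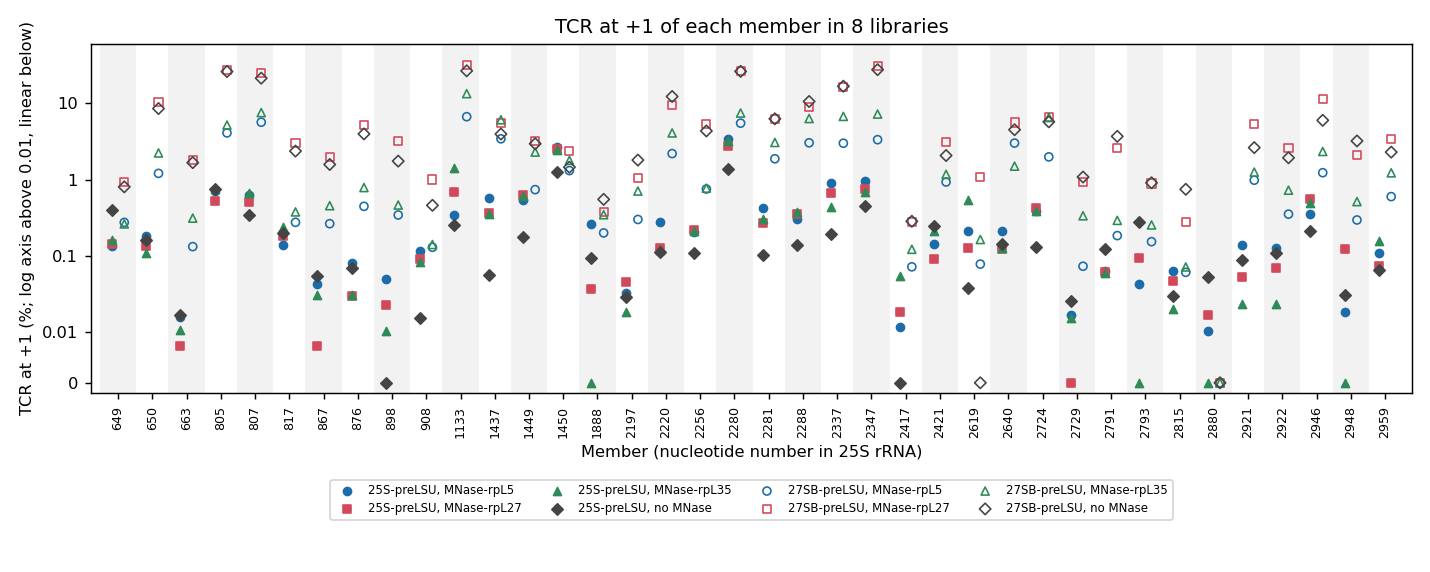
TCR at +1 (vertical axis, percent, log scale above 0.01% and linear below) for each member (horizontal axis, by its number in 25S rRNA) in the 8 libraries. Filled symbols are 25S-preLSUs and stand left of the open symbols of 27SB-preLSUs. At 31 of 38 members all open symbols lie above all filled symbols.

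The comparison of the precursors asked whether stops at the members changed between early and late particles. All 27SB-preLSU libraries lay above all 25S-preLSU libraries at +1 of 31 of 38 members, against 7.69% of all 25S rRNA rows. The reverse order was found at 0 members, against 3.92% of all rows. The 7 members whose values overlapped were Nm649, Nm1450, Nm1888, Nm2619, Nm2793, Nm2815 and nt2880.

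A model with terms for the fusion and the precursor was fitted with limma to log2 of TCR plus 0.1% over the 2554 rows with a TCR above 0 in at least 4 libraries, and p-values were adjusted over all of them. At +1, 37 of 38 members were tested. Of these, 27 were lower in 25S-preLSUs, against 2.55% of all rows tested, and 0 were higher, against 2.27%. The median log2 difference over the members was −2.87, against −0.08 over the other 25S rRNA rows, and 35 of 37 differences were negative. The 10 members tested but not called were Nm649, Nm817, Nm908, Nm1449, Nm1450, Nm1888, Nm2417, Nm2619, Nm2793 and Nm2815, with log2 differences between −1.95 and 0.33. At 0, 12 of 36 members tested were lower in 25S-preLSUs and 0 were higher.

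The largest differences at +1 after that of Nm1133 were at Nm2220 (−4.53 ± 0.64, adjusted p = 0.00272), Nm807 (−4.32 ± 0.58, adjusted p = 0.00233), Nm2288 (−4.13 ± 0.58, adjusted p = 0.00272) and Nm650 (−4.06 ± 0.65, adjusted p = 0.00552), all log2 values with their SE from limma. The smallest difference called was that of Nm2729, guided by snR51, at −2.27 ± 0.55 (adjusted p = 0.0342). At +1 of Nm2729 the TCR was 0.0729% to 1.08% in 27SB-preLSUs, where the authors' noise was 1.10%. In 25S-preLSUs it was at most 0.0254%, with noise of 0.573%. No library thus rose above the noise there, and the limma test does not require it. Nm867, Nm876, Nm898, Nm2421 and Nm2959, guided by snR50, snR72, snR40, snR78 and snR73, had log2 differences between −3.57 and −2.70. At +1 of Nm2959 only the MNase-rpL27 library of 27SB-preLSUs, with 3.37%, rose above the authors' noise, which was 2.5% in that purification.

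These p-values take libraries with different fusions as replicates and rest in part on the MNase-rpL27 pair. Without it 1 member was called, without the MNase-rpL27 and no MNase libraries 10, with a pseudocount of 1% 6, on an arcsine square root scale 16, and without the filter on low values 0. An exact permutation test of 4 against 4 libraries gave its smallest two-sided p of 0.0286 for 31 members, and after adjustment (0.185 at the lowest) it could call none. The sign was negative at 35 or 36 of 37 members in each of these settings, except with 2 pairs left, where it was negative at 32 of 34.

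**Figure D4:**
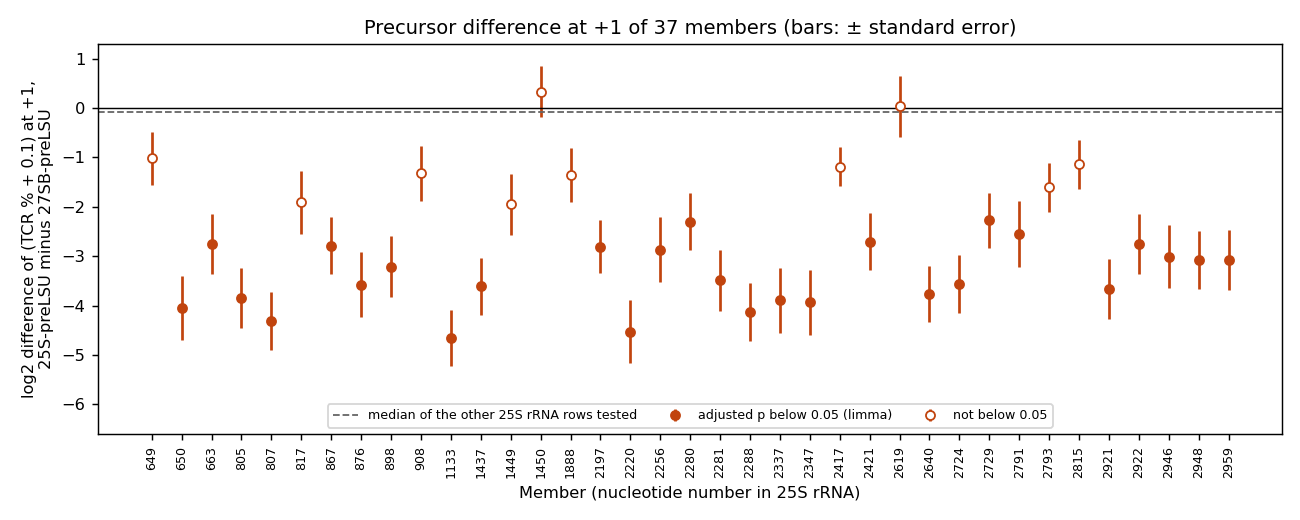
Log2 difference at +1, 25S-preLSU minus 27SB-preLSU (vertical axis, log2 of TCR plus 0.1%, bars give the SE from limma), for the 37 members tested (horizontal axis). Filled points have an adjusted p below 0.05. Of the 37 points, 35 lie below 0, and the dashed line marks the median of −0.08 of the other rows.

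The precursor difference had a different size in each fusion, which was not tested. The median ratio of the TCR at +1, 25S-preLSU over 27SB-preLSU and leaving out nt2880, was 0.193 for MNase-rpL5, 0.0409 for MNase-rpL27, 0.0893 for MNase-rpL35 and 0.0267 for no MNase. At the 53 other positions of 25S rRNA called as stops in 27SB-preLSUs, away from methylated bases, the 5′ end and known MNase sites, the same ratios were 0.538, 0.384, 1.12 and 1.60. Those positions were picked by their 27SB-preLSU values, so their ratios are a description only.

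The same direction was seen at 2′-O-methylated nucleotides of 18S rRNA, which the purified fractions also hold and which is not part of the LSU precursors. At 18 such nucleotides, chosen after the 25S rRNA values had been seen, the median TCR at +1 was 1.25%, 0.874%, 0.883% and 0.355% in 25S-preLSUs with MNase-rpL5, MNase-rpL27, MNase-rpL35 and no MNase. In 27SB-preLSUs it was 5.14%, 11.1%, 7.61% and 14.6%. All 27SB-preLSU libraries lay above all 25S-preLSU libraries at 12 of 18, against 3.06% of all 18S rRNA rows. Pair by pair, 25S-preLSUs were lower at 15, 18, 13 and 18 of 18, against 26.2% to 29.8% of all 18S rRNA rows. Whether a difference between the purifications that is shared by both rRNAs plays a part in the result for 25S rRNA was not tested. At +1 of the methylated bases the purifications did not overlap either, except at m3U2634, with 45.4% to 56.3% at +1 of m1A2142 against 83.0% to 94.8% in 27SB-preLSUs, and 6.44% to 10.6% at +1 of m3U2843 against 39.5% to 51.1% in 27SB-preLSUs. At these 2 bases, however, the highest row of the 25S-preLSUs was at 0, where the purifications overlapped, with 71.4% to 82.9% at m1A2142 against 70.2% to 77.1% in 27SB-preLSUs, and 26.8% to 31.0% at m3U2843 against 20.2% to 46.3% in 27SB-preLSUs.

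The 27SB-preLSU libraries fell into 2 levels at the members. Those with MNase-rpL27 and without MNase both exceeded those with MNase-rpL5 and MNase-rpL35 at +1 of 33 of 38 members. This order was found at 19.3% of the other 25S rRNA rows and at 13 of the 53 other stops. The exceptions were Nm1437, Nm1450, Nm2619, Nm2724 and nt2880. MNase-rpL35 exceeded MNase-rpL5 at 35 of 38 members, all but Nm649, Nm2640 and nt2880, and at 39.0% of the other rows.

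Relative to the library without MNase, the median ratio at +1 in 27SB-preLSUs was 0.201 for MNase-rpL5, 1.15 for MNase-rpL27 and 0.333 for MNase-rpL35, over the 36 members with a TCR above 0 without MNase. With MNase-rpL5 all 36 ratios were below 1. At the 53 other stops the medians for these fusions were 0.412, 0.220 and 0.465 in 25S-preLSUs, whereas those of 27SB-preLSUs were 1.02, 0.788 and 0.680. At these stops the 25S-preLSU library without MNase stood apart, with a median TCR of 7.25%, against 1.84% to 2.83% in the libraries with a fusion, and the precursor ratio of 1.60 above rests on it. At +1 of m1A645, m1A2142 and m3U2634 the 27SB-preLSU libraries had the order opposite to that at the members, for example 89.5%, 57.5% and 82.6% at m3U2634 for MNase-rpL5, MNase-rpL27 and MNase-rpL35, against 63.9% for no MNase. At m3U2843 it was neither, with 40.5%, 45.1% and 51.1% for the same fusions, against 39.5% for no MNase. In 25S-preLSUs the ratios to no MNase at the members had medians of 1.68, 1.49 and 1.05, so that MNase-rpL5, the lowest in 27SB-preLSUs, was the highest there. Most of these 25S-preLSU values lay below the authors' noise. Only 8, 5 and 7 of 38 members were above it at +1 with MNase-rpL5, MNase-rpL27 and MNase-rpL35, and 5 without MNase. The 18S rRNA medians in 27SB-preLSUs were also lower with MNase-rpL5 and MNase-rpL35 than in the other two libraries.

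**Figure D5:**
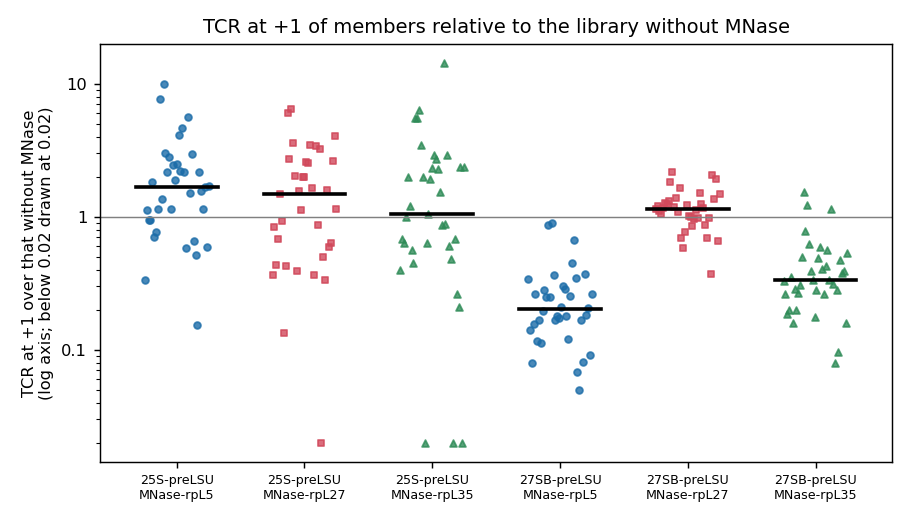
TCR at +1 of each member over its value without MNase in the same purification (vertical axis, ratio, log scale, ratios below 0.02 drawn at 0.02), by purification and fusion, with 25S-preLSUs on the left. Black bars are medians, 1.68, 1.49 and 1.05 in 25S-preLSUs and 0.201, 1.15 and 0.333 in 27SB-preLSUs.

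In limma fits over both purifications, 0 members were called for MNase-rpL5, MNase-rpL27 or MNase-rpL35 over no MNase in either direction. All 25S rRNA rows gave 0.0392% called higher for each fusion and 0% called lower. Unadjusted p-values under 0.05 were found at 2, 1 and 1 of 37 members, and at 200, 235 and 247 of all 2554 rows. These fits average the 2 purifications, in which the medians with MNase-rpL5 and MNase-rpL35 moved in opposite directions, and with 1 library per condition the effect of a fusion within 27SB-preLSUs cannot be told apart from that of a single library.

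The rankings of the members were nonetheless positively correlated between all libraries, to a varying degree. Spearman's rho of the TCR at +1 over the 38 members was 0.685 to 0.891 between 25S-preLSU libraries, 0.890 to 0.968 between 27SB-preLSU libraries, and 0.576 to 0.824 between purifications. The points share rRNA positions and, through overlapping windows, some rows, so no p is given. No rho was computed over other rows. Members that share a guide could differ in level. Of the pair of snR60, Nm817 had its highest row at 0 with up to 9.40% in 27SB-preLSUs, and Nm908 had at most 1.19% at 0. Of the pair of snR67, Nm2724 had 1.98% to 6.69% at +1 in 27SB-preLSUs, and Nm2619 had 0% to 1.09%.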

How the data were processed

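Random primer extension libraries of 25S-preLSUs and 27SB-preLSUs were analysed, 1 for each condition. Bowtie2, R64 and sacCer3 are named in the processing notes of the submitters, and the Bowtie2 version was not given in the sources used here. Reads were mapped to the rDNA by the authors, who corrected for amplification with random barcodes, and deposited for each nucleotide the TCR as a fraction of unique fragments that end there. They also deposited the local noise as a fraction, the highest value within a few nucleotides in 100 simulated sets per library. No coverage is given, so depth per nucleotide is unknown. All columns were mapped to samples.

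TCR was multiplied to percent, and the rows from −2 to +2 of each member were taken. Stops were called above noise and at least 2 times the flanking median, and purifications and fusions were compared with limma trend on log2(TCR in percent + 0.1) with Benjamini-Hochberg adjustment over 2554 rows. Residual degrees of freedom were 3. The p-values measure the spread between single libraries with different fusions. The limma fit was also run on simulated rows with independent random spread and without the filter on low values. That setting differs from these libraries, so the run does not measure the error rate of the p-values given here.

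The members were listed by position and no value entered the rule, but they and the guides and lists were chosen with earlier results of these data known, and guides and the 18S rRNA nucleotides were taken from general knowledge. The text names the 10 members with the highest median of their highest row, the 5 lowest, neighbours with overlapping windows, Nm649, Nm650, Nm2640 and every member with a row called by limma. Nm1888 and Nm2619 were named after their values were seen. Alternatives covered the pseudocount, the filter, the model, the scale, the stop rule and leaving out libraries. No genome sequence was used here, so no bases were shown. Tools were Python 3.11.15, numpy 2.4.6, pandas 2.3.3, matplotlib 3.10.9, R 4.3.3 and limma 3.58.1.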

Additional observations from a re-analysis of the deposited data

Results flagged for a closer look

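The TCR at +1 of a member was set against Dixon's critical value for 4 samples, in 76 groups of 4 libraries of one purification. That value flags about 1 in 20 groups of replicates from 1 normal distribution. This rate need not hold for libraries with different fusions. The value was exceeded in 7 groups, in 5 of them by the 25S-preLSU library without MNase. In 25S-preLSUs the library without MNase was high at Nm649 (0.398%, next value 0.159%) and at Nm2791 (0.123%, next 0.0633%), and it was low at Nm1450 (1.24%, next 2.47%), Nm2256 (0.109%, next 0.205%) and Nm2724 (0.130%, next 0.382%). The MNase-rpL5 library of 25S-preLSUs was high at Nm2220 (0.276%, next 0.127%), and the MNase-rpL27 library of 27SB-preLSUs was high at Nm2619 (1.09%, next 0.163%). The libraries differ in their fusion, so they are not replicates.

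The members' median TCR at +1 moved in opposite directions in the 2 purifications for 2 fusions. With MNase-rpL5 it differed from that without MNase by 0.0515 percentage points in 25S-preLSUs and by −2.12 in 27SB-preLSUs, and with MNase-rpL35 by 0.0281 in 25S-preLSUs and by −1.81 in 27SB-preLSUs. Most single values at +1 in 25S-preLSUs lay below the authors' noise. With 1 library per condition these differences between the purifications were not tested.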

How the results depend on the processing

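No member called in the precursor comparison changed its sign under any alternative run. Of 404 outcomes for single members in that comparison, 267 kept their side of the threshold, 136 lost the call and 1 gained it. Limits are 1 library per condition, unknown depth, and the MNase-rpL27 libraries, without which 26 of 27 calls of the precursor test were lost, against 4 without the no MNase libraries. The mean of the library medians at +1 in a 3-nt window was 0.358% for 25S-preLSUs, against 4.51% for 27SB-preLSUs, and 0.195% in 25S-preLSUs when the higher of the rows at 0 and +1 was taken, which was chosen after seeing the data. Leaving out nt2880 or members within 7 nt of a methylated base or MNase site, or a stricter set of other rows, moved it by less than the spread between libraries. Above 2 times the noise, 1 member in 25S-preLSUs and 9 in 27SB-preLSUs were called as stops, and 40 other rows in each. With 3 of 4 libraries required, the counts were 6 members and 139 other rows in 25S-preLSUs, and 20 members and 118 other rows in 27SB-preLSUs. In settings chosen after seeing the data, the MNase-rpL5 and MNase-rpL35 libraries alone gave 6 members and 133 other rows in 25S-preLSUs, and 18 and 108 in 27SB-preLSUs. The MNase-rpL27 and no MNase libraries alone gave 3 and 90 in 25S-preLSUs, and 28 and 115 in 27SB-preLSUs.

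For 25S-preLSU over 27SB-preLSU, 27 members were lower, 58 of all rows higher and 65 lower. A pseudocount of 1% gave 6, 10 and 8, no filter 0, 1 and 0, and the exact permutation test 0, 0 and 0, where no adjusted p could pass. The arcsine square root scale gave 16 members and 28 rows lower. Without the MNase-rpL27 and no MNase libraries (chosen after seeing the data), the counts were 10, 17 and 17. Leaving out one fusion at a time gave 1 to 28 members lower, 3 to 38 rows higher and 2 to 98 rows lower, with the lowest counts always without MNase-rpL27. A pseudocount of 1% left 0 rows higher for each fusion over no MNase. The causes were not tested. The fit pairs the purifications by fusion, and without that term 26 members were called. With 1 library per condition there were no replicates to pair beyond this.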
